A study of Homo sapiens with 6 samples.

Results

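Wide H3K27me3 peaks are the stretches of at least 1 kb that were listed as trimethylated on lysine 27 of histone H3 in ACHN cells, a human renal carcinoma line. They were chosen by their own measured values, as all peaks with a deposited length of 1000 bp or more and a deposited score below 20, after identical lines were removed. The rule kept 3043 of the 162935 H3K27me3 peaks, which are part of the 213235 peaks of the 4 lists of the series. Of them, 1850 came from cells labelled ZCCHC8-WT (WT, titled Ctrl), which is 1.99% of that list, and 1193 came from cells labelled ZCCHC8-KO (KO, titled sgZ8), which is 1.71%. Each wide peak was then called shared where it overlapped any H3K27me3 peak of the other genotype by at least 1 bp, and WT-only or KO-only where it did not.

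The series held 6 libraries of ACHN cells without any stated treatment: H3K27me3, EZH2 and input, each from ZCCHC8-WT and from ZCCHC8-KO cells. ZCCHC8 is the zinc-knuckle subunit of the NEXT complex, which hands RNA in the nucleus to the exosome for decay, and the title of the series places it in a study of H3K27me3 levels and tumour progression. The sources used here do not say whether the KO cells were 1 clone or a pool. There was 1 library per group, so no difference between genotypes has a replicate check, no p-value was computed, and how deeply the libraries were sequenced is unknown. Shares carry exact 95% Clopper-Pearson intervals, which cover counting error only and treat neighbouring peaks as independent.

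H3K27me3 is written by Polycomb repressive complex 2 (PRC2), whose catalytic subunit is EZH2. The complex binds at nucleation sites, often CpG islands near silent developmental genes, and a subunit that reads the mark lets it spread to neighbouring nucleosomes, so that long stretches of mark are typical of stable Polycomb domains. Genes inside such domains are usually silent lineage genes of other tissues, which in a kidney cell include genes of neurons, skin and blood.

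The sequences shown are promoters, because the few promoters that wide peaks covered were CpG-poor. A promoter here is the 300 bases from 250 before to 50 after a transcription start, from RefSeq on GRCh38.p14, printed 5′ to 3′ on the strand of the gene in lower case with each CG in capitals; CG reads the same on both strands, and 98.0% of the 22078 listed promoters hold at least 1. KLF14, an imprinted Krüppel-like transcription factor, had the widest peak of both lists at 7406 bp in WT, and its promoter at chr7:130734158-130734457 on the minus strand holds 39 CG, more than or as many as 90.2% of promoters. The other sequences, chosen after their values were seen like that of KLF14, lay wholly under a wide peak and hold 0, 1 or 2 CG: CLEC12B (a C-type lectin receptor of myeloid and NK cells) at chr12:10010377-10010676, TRPM8 (the cold-sensing cation channel) at chr2:233953503-233953802 and WEE2 (an oocyte kinase) at chr7:141708103-141708402 in WT, and DHRS9 (a retinol dehydrogenase) at chr2:169066827-169067126 in KO, all on the plus strand.
KLF14: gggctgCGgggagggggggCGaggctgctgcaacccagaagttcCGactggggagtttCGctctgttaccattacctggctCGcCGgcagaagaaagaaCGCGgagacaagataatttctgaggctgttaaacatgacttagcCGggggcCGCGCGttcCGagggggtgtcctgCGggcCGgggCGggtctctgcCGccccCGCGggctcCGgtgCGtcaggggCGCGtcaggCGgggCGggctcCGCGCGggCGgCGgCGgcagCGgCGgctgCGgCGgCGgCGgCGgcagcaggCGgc
CLEC12B: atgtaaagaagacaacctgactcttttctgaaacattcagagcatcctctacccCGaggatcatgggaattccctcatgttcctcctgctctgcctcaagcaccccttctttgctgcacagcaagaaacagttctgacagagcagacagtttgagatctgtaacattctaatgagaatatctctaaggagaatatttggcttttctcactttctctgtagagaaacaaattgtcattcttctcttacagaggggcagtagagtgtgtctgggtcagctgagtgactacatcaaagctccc
TRPM8: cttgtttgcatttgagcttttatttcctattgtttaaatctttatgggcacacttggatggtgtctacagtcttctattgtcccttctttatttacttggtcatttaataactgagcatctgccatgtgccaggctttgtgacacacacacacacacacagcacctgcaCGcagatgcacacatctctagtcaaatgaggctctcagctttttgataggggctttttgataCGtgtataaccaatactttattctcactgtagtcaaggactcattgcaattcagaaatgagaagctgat
WEE2: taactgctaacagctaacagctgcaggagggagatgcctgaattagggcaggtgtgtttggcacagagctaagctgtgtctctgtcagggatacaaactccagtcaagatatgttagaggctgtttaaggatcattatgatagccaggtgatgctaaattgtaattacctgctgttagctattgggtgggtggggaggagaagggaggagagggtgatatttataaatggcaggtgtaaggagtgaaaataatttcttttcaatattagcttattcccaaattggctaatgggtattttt
DHRS9: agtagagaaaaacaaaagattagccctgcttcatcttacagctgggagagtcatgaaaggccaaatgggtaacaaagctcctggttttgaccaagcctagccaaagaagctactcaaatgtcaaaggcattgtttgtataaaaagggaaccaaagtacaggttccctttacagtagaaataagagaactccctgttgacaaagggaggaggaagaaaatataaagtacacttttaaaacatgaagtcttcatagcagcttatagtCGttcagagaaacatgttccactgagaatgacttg

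Not a base of the KLF14 promoter was covered by an H3K27me3 peak in either list, yet a wide peak began 367 bp from it in WT and 401 bp from it in KO. The CLEC12B promoter was covered over all 300 bases in WT and over 0 in KO. At TRPM8 a narrower KO peak covered 197 of the 300 bases, and at WEE2 a narrower KO peak covered 14. The DHRS9 promoter shown was covered over 300 bases in KO and over 83 in WT. Another listed DHRS9 promoter, at chr2:169072325-169072624, was covered over 300 in KO and 0 in WT. For TRPM8, the start shown, at chr2:233953753, lies inside the gene, which begins at 233917373. The promoters shown thus range from a CpG-dense start left bare beside a wide peak to CpG-poor starts buried in one.

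The other promoters under wide peaks were CpG-poor as well. A wide peak overlapped 8 promoters in WT and 4 in KO, which belong to 10 genes, and these 12 promoters held a median of 1 CG (range 0 to 5) where all promoters held a median of 21. Promoters with at most 5 CG make up 21.4% of the table. Narrower peaks lay on starts of the same kind: in WT, H3K27me3 peaks of any width overlapped 2.50% of promoters with at most 5 CG, 0.276% of those with 6 to 20 and 0.0357% of those with 21 or more. In KO the corresponding shares were 1.88%, 0.260% and 0.0268%. Promoters merely within 5 kb of a wide peak were less depleted of CpG, with a median of 17 CG over 189 promoters in WT and 15.5 over 108 in KO. Promoters overlapped by an EZH2 peak held a median of 12 CG in WT (129 promoters) and 9.5 in KO (96 promoters).

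Wide peaks lay nearer to transcription starts than H3K27me3 peaks did in general, though seldom on them. The median distance to the nearest listed start was 49.0 kb for WT wide peaks against 79.1 kb for all WT peaks, and 46.4 kb for KO wide peaks against 68.4 kb for all KO peaks. A start lay within 5 kb of 9.57% of WT wide peaks, against 5.64% of all WT peaks, and of 8.25% of KO wide peaks, against 6.28% of all KO peaks. A wide peak covered a start in 7 of 1818 cases in WT and 2 of 1163 in KO on chromosomes with listed promoters. WT wide peaks shared with KO were closer, at a median of 41.5 kb, than WT-only wide peaks at 73.9 kb. The same order held in KO, with 44.2 kb for shared and 60.7 kb for KO-only wide peaks. The WT-only median was thus near the 79.1 kb of all WT peaks. Distances were not compared within chromosomes, over which wide peaks were unevenly spread.

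In width, the WT wide peaks ran from 1000 to 7406 bp with a median of 1259.5, and the KO wide peaks from 1000 to 5301 bp with a median of 1211. Together they covered 2.66 Mb in WT, or 8.39% of the length of that list, and 1.64 Mb in KO, or 7.08%. The deposited scores, left undefined in the sources used here, had a median of 11 (7 to 19) in WT and 8 (4 to 19) in KO. Width and score chose these peaks, so the values describe them and no more. Within 100 bp below the width limit, 709 WT peaks were shared in 48.1% of cases, and within the 100 bp from the limit up, 478 were shared in 53.3%. In KO, 459 peaks just below the limit were shared in 67.3% and 372 just above it in 71.0%.

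Of the WT wide peaks, 1203 (65.0%, interval 62.8 to 67.2) overlapped a KO peak, against 15.9% of all WT H3K27me3 peaks. Of the KO wide peaks, 953 (79.9%, 77.5 to 82.1) overlapped a WT peak, against 21.4% of all KO peaks. Longer peaks offer more bases for a 1 bp overlap, so the share of length is given too: 30.8% of the length of WT wide peaks was covered in KO, against 12.1% over all WT peaks, and 43.3% of the length of KO wide peaks was covered in WT, against 16.6%. Sharing is the grouping that the rule itself sets, and the KO list was the shorter of the pair. That left 647 WT-only and 240 KO-only wide peaks.

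Sharing was more common among wider peaks in both lists, as the plot of sharing by width shows. In WT it went from 57.9% of the 907 peaks of 1000 to 1249 bp through 75.5% of the 306 peaks of 1500 to 1999 bp to 94.3% of the 35 peaks of 3000 bp or more. In KO the same classes gave 73.2% of 657, 88.1% of 177 and 100% of 17. Sharing also followed the score, from 44.4% at scores of 7 or less to 83.6% at 15 to 19 in WT, and from 66.9% to 100% in KO. The share of length covered in the other list, which does not favour long peaks in the same way, climbed from 25.4% to 55.9% across the WT width classes and from 34.9% to 77.3% across the KO classes.

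**Figure D1:**
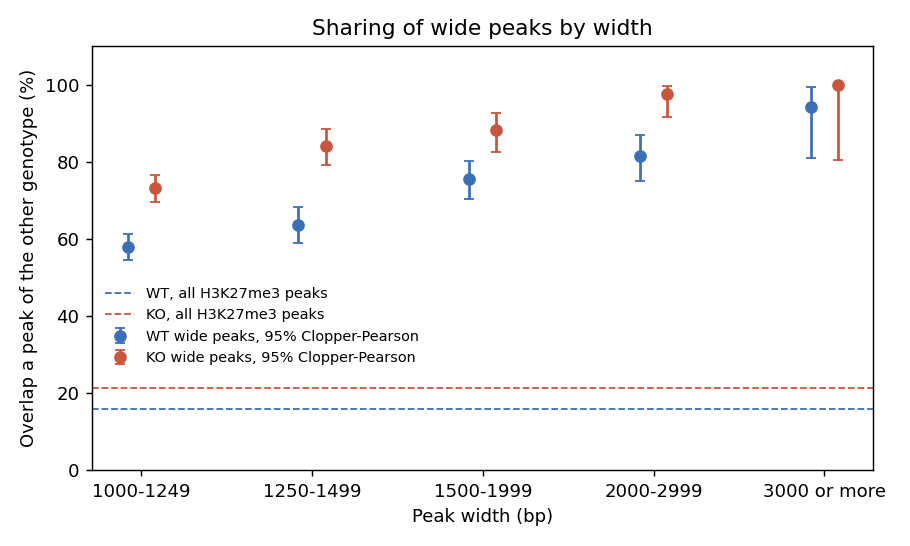
Share of wide H3K27me3 peaks (percent, y axis) that overlapped a peak of the other genotype, by peak width in bp (x axis); points are WT (blue) and KO (red) with 95% Clopper-Pearson intervals, and dashed lines give all H3K27me3 peaks of each list. The points climb from 57.9% to 94.3% in WT and from 73.2% to 100% in KO, above the lines at 15.9% and 21.4%.

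What the other genotype held at a shared wide peak was mostly a narrower peak. Of the 1203 shared WT wide peaks, 274 (22.8%) met a KO wide peak and 929 met only narrower or higher-scoring KO peaks, the widest of which had a median of 432 bp. KO peaks covered a median of 40.9% of a shared WT wide peak (quartiles 24.1 and 61.5), with 32 covered in full and 243 covered by less than 20%. Of the 953 shared KO wide peaks, 271 (28.4%) met a WT wide peak, the other 682 met WT peaks with a median of 486.5 bp, and WT peaks covered a median of 48.7% (27.9 and 71.7). More than 1 peak of the other list overlapped 485 (40.3%) of the shared WT and 391 (41.0%) of the shared KO wide peaks. Up to 6 and 4 did so at a time. Many wide peaks of 1 list therefore met more than 1 peak of the other, which need not lie wholly inside them.

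Joined by overlap, the wide peaks made 2750 loci, of which 252 were wide in both genotypes, 1576 in WT alone and 922 in KO alone. Where a wide peak of each list matched a single peak of the other, 80 pairs were wide in both. In those pairs the WT member had a median width of 1292 bp and the KO member 1274.5 bp, with WT wider in 38 and KO wider in 40. Their scores were higher in WT in 59 of 80, with medians of 12 and 9. Picked for being wide in WT, 631 one-to-one pairs had a WT median of 1231 bp beside a KO median of 415 bp. Picked for being wide in KO, 459 pairs had a KO median of 1179 bp beside a WT median of 487 bp. Which member was wider thus went with the list in which the pair was picked.

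Peaks without an overlapping partner were often close to one. A KO peak lay within 5 kb of 389 (60.1%) of the WT-only wide peaks, against 49.0% of all WT-only peaks, and within 20 kb of 497 (76.8%), against 71.5%. A WT peak lay within 5 kb of 207 (86.3%) of the KO-only wide peaks, against 63.9% of all KO-only peaks, and within 20 kb of 233 (97.1%), against 87.2%. No peak of the other list lay within 20 kb of 150 WT-only and 7 KO-only wide peaks. A KO-only wide peak was thus nearly always set in a stretch that also had peaks in WT.

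The profiles around peak centres show the same. Around shared WT wide peaks, KO peaks covered 45.5% of bases at the centre, 18.5% at 2 to 5 kb and 10.3% at 15 to 20 kb, beside WT coverage of 25.3% and 13.2% in the flanks. Around WT-only wide peaks the KO list covered 5.40% at 2 to 5 kb and 4.24% at 15 to 20 kb, where the WT list covered 18.2% and 11.4%. Around KO-only wide peaks the WT list covered 9.01% and 7.30%, beside 12.8% and 7.93% in KO. The surroundings of shared KO wide peaks were covered alike by both lists, at 21.9% in KO and 21.8% in WT for 2 to 5 kb. KO coverage at WT-only wide peaks was therefore below WT coverage over the whole window, whereas WT coverage at KO-only wide peaks came close to KO coverage at its edges. Chromosome 7, where KO had fewer H3K27me3 peaks at 0.400 of the WT number, held 35.7% of WT-only but 2.92% of KO-only wide peaks. The profiles were not recomputed without chromosome 7.

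**Figure D2:**
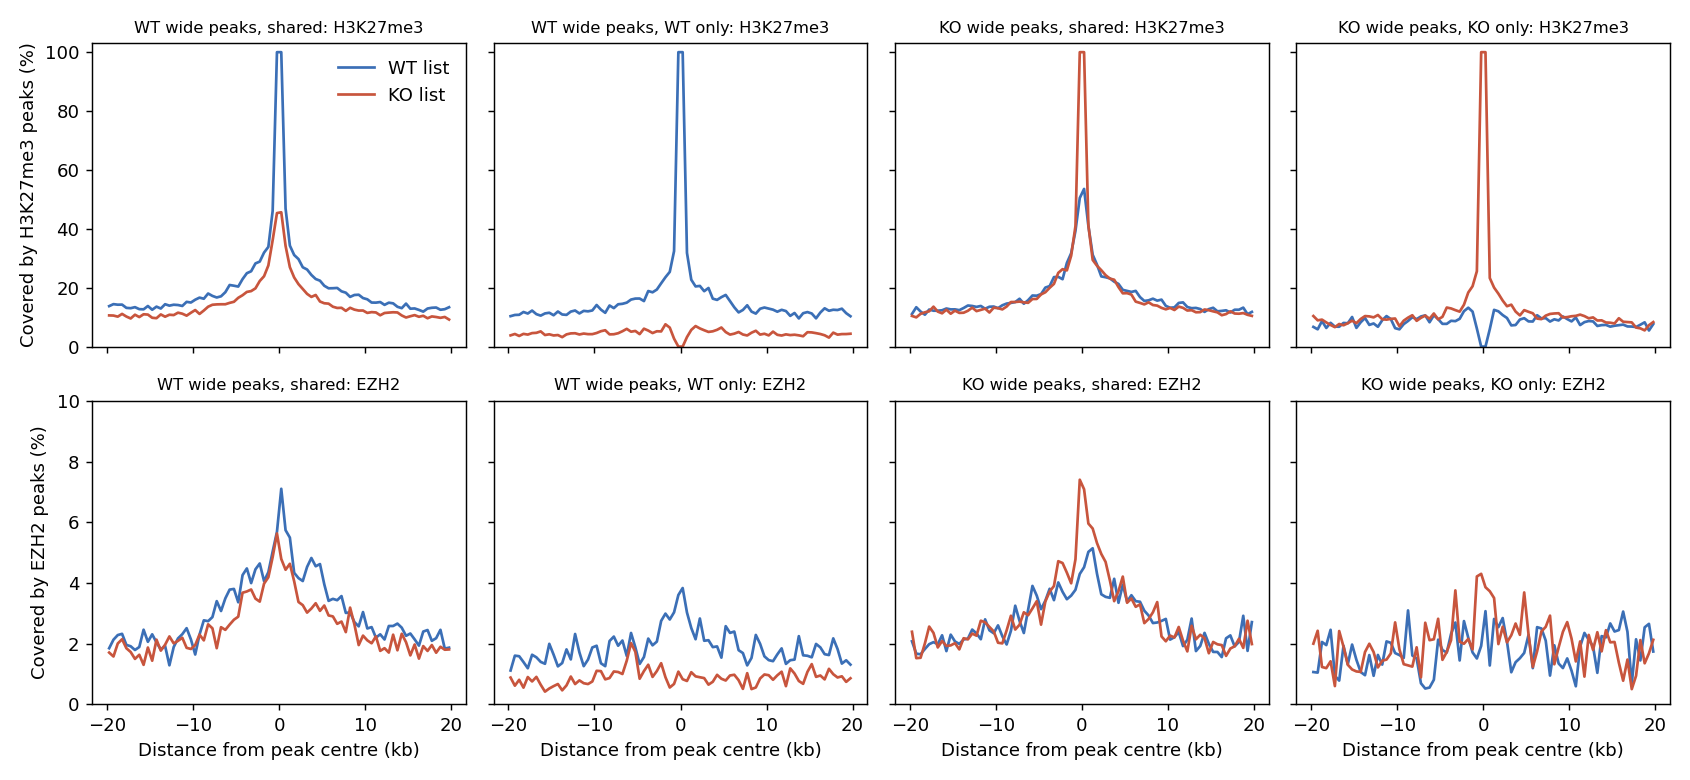
Share of bases (percent, y axis) covered by H3K27me3 peaks (upper row) and EZH2 peaks (lower row, own scale) in 500-bp bins up to 20 kb to each side of the centre (x axis, kb) of the 4 groups of wide peaks, with WT lists in blue and KO lists in red. At WT-only wide peaks both KO lines stay low across the window, with KO EZH2 coverage of 0.961% at 2 to 5 kb, whereas at shared wide peaks the lines of both genotypes peak together.

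EZH2, which the rule did not use, lay within 5 kb of most wide peaks of each group when EZH2 peaks of any score were taken. A WT EZH2 peak lay within 5 kb of 68.2% (65.4 to 70.8) of shared and 54.9% (50.9 to 58.8) of WT-only wide peaks, against 31.4% of all WT H3K27me3 peaks. A KO EZH2 peak lay within 5 kb of 67.3% (64.2 to 70.2) of shared and 55.4% (48.9 to 61.8) of KO-only wide peaks, against 30.1% of all KO peaks. The intervals of shared and unshared wide peaks did not overlap in either genotype. With EZH2 scores of 7 or more, the shares were 58.0% and 45.4% in WT and 31.4% and 16.7% in KO. Within 1 kb they were 41.4% and 27.5% in WT and 41.2% and 30.0% in KO. For that EZH2 score and for 1 kb, the share over all H3K27me3 peaks was not computed. These values therefore compare shared with unshared wide peaks only. The H3K27me3 and EZH2 lists of a genotype had 1 input library in common, whose part in their joint listing was not tested.

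Shared wide peaks also had EZH2 nearby more often among peaks of like width or score, but in KO the intervals overlapped in every class. Within 1000 to 1249 bp, EZH2 lay near 65.3% of shared and 53.1% of WT-only peaks, and near 63.6% of shared and 54.0% of KO-only peaks, where the KO intervals overlapped. From 1250 to 1499 bp the WT shares were 67.8% and 57.7%, and at scores of 9 or less 148 of 252 and 109 of 218 peaks had EZH2 nearby, and in both classes the WT intervals overlapped too. Within scores of 10 or more, the shares were 70.7% and 57.3% in WT, and 76.1% and 70.0% in KO, where 30 KO-only peaks scored that high and the KO intervals again overlapped. The WT share was highest in the widest peaks, with 82.9% of the 35 peaks of 3000 bp or more against 60.2% of those of 1000 to 1249 bp. In KO these classes had 64.7% of 17 and 61.0% of 657.

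EZH2 of the other genotype told the groups apart most. A KO EZH2 peak lay within 5 kb of 57.9% (55.1 to 60.7) of shared WT wide peaks but of 23.8% (20.6 to 27.3) of WT-only ones, where 22.3% of all WT H3K27me3 peaks had one. A WT EZH2 peak lay near 61.9% (58.7 to 65.0) of shared KO wide peaks and 45.4% (39.0 to 52.0) of KO-only ones, with 31.4% for all KO peaks. EZH2 of both genotypes lay near 44.1% of shared WT and 15.9% of WT-only wide peaks, and near 47.4% of shared KO and 30.0% of KO-only wide peaks. WT-only wide peaks thus had KO EZH2 nearby about as often as all WT peaks, and KO-only wide peaks had WT EZH2 nearby more often than all KO peaks. Chromosome 7 held 35.7% of WT-only but 2.92% of KO-only wide peaks, and 13.2% of all WT peaks. Shares for EZH2 of the other genotype were not recomputed without chromosome 7, so its part in them was not tested.

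**Figure D3:**
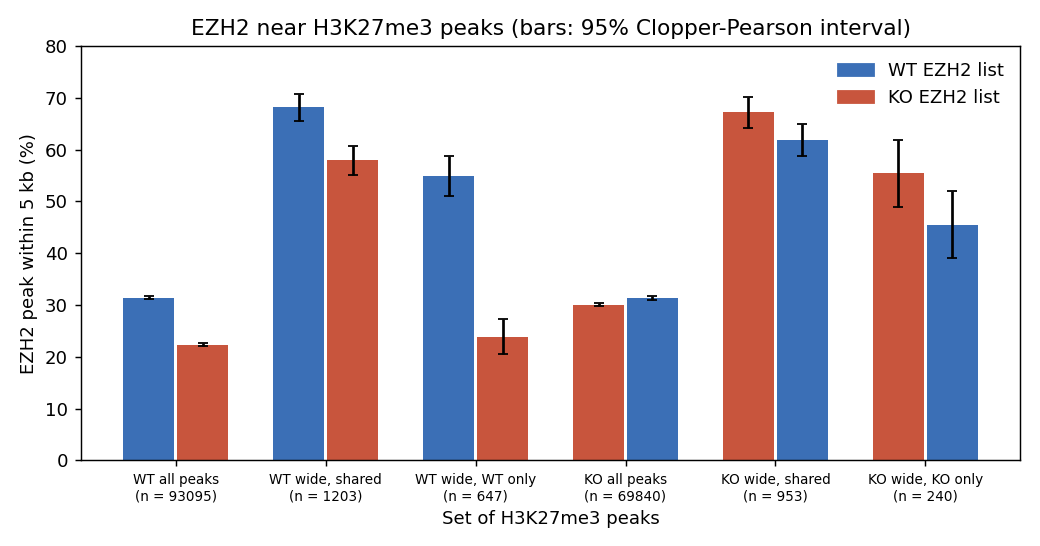
Share of H3K27me3 peaks (percent, y axis) with an EZH2 peak of WT (blue) or KO (red) within 5 kb, for all peaks and for shared and unshared wide peaks of each list (x axis, with n); bars start at 0 and error bars are 95% Clopper-Pearson intervals. The KO bar for WT-only wide peaks, at 23.8%, is level with that for all WT peaks at 22.3%, and every other bar for wide peaks is higher than its bar for all peaks.

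Direct overlap with EZH2 was less common. An EZH2 peak of the same genotype overlapped 23.1% of WT wide peaks (26.8% of shared and 16.4% of WT-only), against 4.52% of all WT peaks, and 25.7% of KO wide peaks (27.4% of shared and 19.2% of KO-only), against 5.27%. Wide peaks are longer than the median WT peak of 269 bp, which bears on the overlap more than on the 5 kb window. In most wide peaks with EZH2 nearby, the EZH2 peak lay beside the marked stretch and not on it.

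The wide peaks were unevenly spread over the chromosomes. Chromosomes 1, 2, 7, 10, 12 and 17, picked after their values were seen, held 1588 (85.8%) of the WT and 910 (76.3%) of the KO wide peaks, and 56.1% and 52.8% of all H3K27me3 peaks. On these 6, 3.04% of WT peaks and 2.47% of KO peaks were wide, against 0.641% and 0.858% on the other 18. EZH2 was listed near more of all peaks there as well, at 40.2% against 20.1% in WT and 39.3% against 19.7% in KO. On the other 18 chromosomes, EZH2 lay near 53.2% of shared and 24.7% of WT-only wide peaks, and near 50.7% of shared and 39.5% of KO-only ones. WT-only wide peaks outside the 6 chromosomes were therefore near EZH2 about as often as any peak there, while shared ones were so more often.

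Chromosome 7 held 475 wide peaks in WT and 76 in KO, a ratio of 0.160 where all its peaks had 0.400. It carried 231, or 35.7%, of the WT-only wide peaks. The ratio was 0.698 on chromosome 12 (387 and 270) with 0.694 for all peaks, 0.754 on chromosome 2 (293 and 221) with 0.758, and 0.800 on chromosome 10 (175 and 140) with 0.824. On chromosome 1 it was 0.711 (190 and 135) with 0.875 for all peaks, and on chromosome 17 it was 1.00 (68 in each) with 1.13. The other 18 chromosomes together had 262 in WT and 283 in KO, and none lay on X or Y. On chromosomes 2, 10 and 12 wide peaks were thus fewer in KO by about as much as all peaks were. They were fewer by more on chromosomes 1 and 7. Chromosome 17 had as many wide peaks in KO as in WT, while all its peaks were more numerous in KO. Without chromosome 7 there were 1375 in WT and 1117 in KO.

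**Figure D4:**
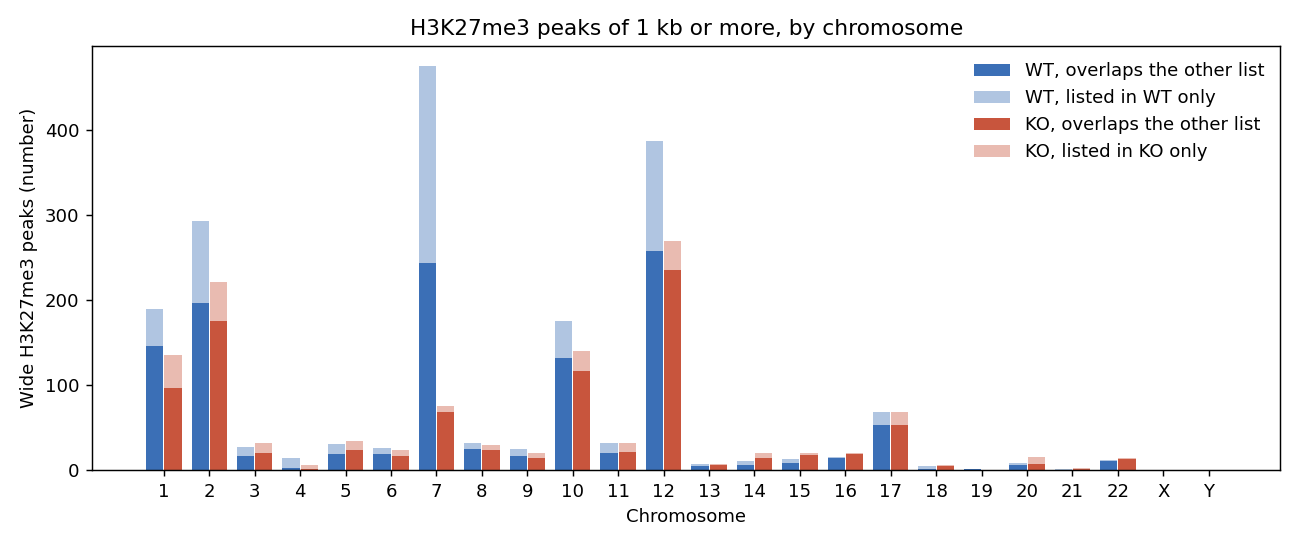
Number of wide H3K27me3 peaks (y axis) on each chromosome (x axis) in WT (blue) and KO (red), with dark parts for peaks that overlapped the other list and pale parts for peaks listed in 1 genotype only. Chromosome 7 has 475 in WT and 76 in KO, and the 6 chromosomes that stand out hold 85.8% of WT and 76.3% of KO wide peaks.

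Along a chromosome the density was uneven too. On chromosome 1, 24 of 2691 WT peaks (0.892%) before the longest stretch without peaks, 125182625 to 143214412, were wide, against 166 of 5515 (3.01%) after it. The KO list showed the same sides, with 13 of 2258 and 122 of 4913. In the first 40 Mb of chromosome 10, 2 of 747 WT peaks and 4 of 586 KO peaks were wide, against 173 of 6182 and 136 of 5123 in the rest. These borders, noticed in the data, were seen in both lists. Chromosome 10, cut instead at its longest stretch without WT peaks, had 2.52% of WT peaks wide before it and 3.03% of 66 after it. Cut at such stretches, chromosome 7 had 3.81% and 3.92% in WT, and chromosome 17 2.60% and 3.04%. On chromosome 2 the shares were 2.37% and 1.57% in WT but 2.16% and 2.66% in KO. On chromosome 12, 387 of 9336 WT peaks were wide before the cut and 0 of 129 after it. In KO these were 268 of 6398 and 2 of 165. A single cut per chromosome cannot show whether a border lies elsewhere on it.

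Among windows of 10 Mb, the most wide peaks lay in the first of chromosome 12, with 79 in WT (68 shared) and 83 in KO (75 shared). The window from 60 to 70 Mb of the same chromosome had 73 in WT and 39 in KO. From 70 to 80 Mb of chromosome 7 there were 53 in WT, of which 5 were shared, and 0 in KO. From 70 to 80 Mb of chromosome 10 there were 40 in WT and 49 in KO. Dense windows thus differed in whether WT or KO had more wide peaks.

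Many wide peaks lay in runs, but runs were not counted over all H3K27me3 peaks, so the shares here have no background. With gaps of up to 20 kb, 956 (51.7%) of WT wide peaks lay in 325 runs of 2 or more and 505 (42.3%) of KO wide peaks in 181. The longest WT run spanned 122 kb at chr12:65023725-65145974 and held 21 wide peaks, 18 of them shared, and KO had 15 wide peaks there. It covers WIF1, which encodes a secreted inhibitor that binds WNT ligands, and the region had 35 WT and 23 KO EZH2 peaks. The longest KO run lay in the same place, with 13 wide peaks. The next WT run, chr12:31130542-31205535, had 15 wide peaks against 3 in KO and no protein-coding gene within 5 kb.

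Runs over SEMA3D and CR2 with CR1 differed more between the lists. SEMA3D encodes a secreted semaphorin of axon guidance, and its run of 11 WT wide peaks met 2 in KO, with 7 WT and 1 KO EZH2 peaks. CR2 and CR1 encode complement receptors of B cells and blood cells, and their run of 9 in WT met 4 in KO, with 19 and 12 EZH2 peaks. In KO, 7 wide peaks lay in the 24.8 kb of chr7:130727419-130752217 around KLF14, where WT had 5. Another KO run at chr12:5061640-5145500 without a gene held 10, against 4 in WT.

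KLF14 had wide peaks in both genotypes. The WT peak at chr7:130734824-130742229 was 7406 bp long with a score of 18, and KO peaks, the widest of 4453 bp and a score of 12, covered 85.9% of it. In each genotype 7 EZH2 peaks lay within 5 kb of it and 4 overlapped it. CNPY1, a canopy-family gene, had the next widest, 6884 bp with a score of 17, of which 6 KO peaks covered 62.2%, the widest of 1616 bp. It had 11 WT and 9 KO EZH2 peaks within 5 kb. At CNPY1 the KO list thus held several shorter pieces where the WT list held 1 long peak.

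The other widest shared WT peaks lay in or within 5 kb of the following genes. ABCG8, a sterol transporter of gut and liver, had 3886 bp in WT (score 19) inside a KO peak of 4807 bp (score 16), with 0 WT and 5 KO EZH2 peaks nearby. IGF2BP1, a fetal RNA-binding protein, had 3680 bp in WT and 3490 bp in KO, with 92.9% of the WT peak covered. KRT6A, a keratin of stressed epidermis, had 4005 bp in WT, 95.6% covered by KO peaks of up to 2817 bp. KCNMB4, a regulatory subunit of large-conductance potassium channels, had 3964 bp in WT and 3069 bp in KO.

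HSF5, a heat-shock-factor family member of the testis, had 3680 bp in WT of which 5 KO peaks, none above 302 bp, covered 36.0%. RGPD6, which has near-identical copies on chromosome 2 and is uncertain for that reason, had 3720 bp in WT with 32.3% covered. Among KO peaks, KRT6C had 4092 bp against WT peaks of up to 2396 bp, and the hair-follicle keratin gene KRT73 had 3700 bp against 2081 bp. VWF, the clotting factor of endothelium, had 3465 bp against 2338 bp. CLEC4D, a myeloid lectin receptor, had 3814 bp in KO against at most 711 bp in WT, with no EZH2 peak of either list within 5 kb, and the uncharacterised gene C12orf54 had 3218 bp against 1215 bp. Overlap at these loci thus ranged from near-equal peaks to a long peak set against short fragments.

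WT-only wide peaks were narrower. Of the 8 widest near a gene, 2 lay in MAGI2, a synaptic scaffold gene, with 2800 bp (score 15) and 2684 bp (score 11). KCNH7, a voltage-gated potassium channel gene of neurons, had 2759 bp (score 11) with no EZH2 peak within 5 kb in either list. CTTNBP2, which encodes a cortactin-binding protein of dendritic spines, had 2607 bp with 3 WT and 0 KO EZH2 peaks. PTPRZ1, a receptor-type phosphatase of glia, had 2571 bp with 7 WT and 1 KO EZH2 peaks. Of its 4 WT wide peaks, 3 were shared. C12orf42 (2716 bp), the collagen gene COL28A1 (2626 bp) and ZNF705A (2491 bp, with near-identical copies and uncertain) completed them. WT EZH2 lay near 6 of these 8 peaks and KO EZH2 near 1.

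The widest KO-only peaks near a gene were between 1561 and 1726 bp long. They lay at MYO1H, an unconventional myosin gene (1726 bp), CD34, a surface marker of blood progenitors and endothelium (1716 bp), PGLYRP4, an antibacterial peptidoglycan-binding protein gene of epithelia (1674 bp), and RPH3A, a synaptic vesicle protein gene (1646 bp). NMNAT2, an axonal NAD-synthesis enzyme gene, and TPH2, the neuronal serotonin-synthesis enzyme gene, had 1638 bp each. PDE8B, a cAMP phosphodiesterase gene, had 1588 bp and MYO3B, a myosin gene of sensory cells, 1561 bp. KO EZH2 lay within 5 kb of 7 of the 8, and WT EZH2 within 5 kb of 3, at CD34, PGLYRP4 and TPH2. KO-only describes these peaks and not their genes. Elsewhere within 5 kb of the same genes, WT had 1 wide peak at CD34, NMNAT2 and PGLYRP4 each, 4 at RPH3A and 5 at MYO3B.

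A protein-coding gene lay within 5 kb of 41.9% (39.7 to 44.2) of WT wide peaks, against 38.5% of all WT peaks, and of 39.6% (36.8 to 42.4) of KO wide peaks, against 38.4%. In KO the share was 41.3% for shared and 32.5% (26.6 to 38.8) for KO-only wide peaks. In WT it was 41.6% and 42.7%. Of 20037 genes, 442 (2.21%) had a WT wide peak within 5 kb and 319 (1.59%) had a KO one. Both lists named 159 genes, which is 36.0% of the WT and 49.8% of the KO genes. Of the 283 genes with a wide peak in WT alone, 260 had some other KO peak within 5 kb, where 23.1% of all genes had a KO peak of any width. Of the 160 in KO alone, 156 had some other WT peak, where 26.0% of all genes had a WT peak. Most of these genes thus had an H3K27me3 peak nearby in both lists, though not always at the same place or in like number. A shared wide peak overlaps a peak of the other list by definition, so these counts follow in part from the grouping. The shares over all genes were not matched for gene length.

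Long genes had more chances to meet a wide peak. In WT, 1.00% of genes under 20 kb had one, 2.10% of those of 20 to 100 kb, 4.34% of those of 100 to 300 kb and 10.2% of those of 300 kb or more. The KO shares were 0.787%, 1.59%, 2.98% and 6.34%. A count of genes in a list of long genes has to be read against these shares.

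The genes with the most wide peaks differed between the lists. MAGI2 had 36 in WT, 3 of them shared, and 0 in KO. Over all widths it had 469 WT and 23 KO H3K27me3 peaks and 81 WT and 9 KO EZH2 peaks, so the whole gene, 1437 kb long on chromosome 7, was sparsely listed in KO. Also on chromosome 7, SEMA3D had 14 in WT and 2 in KO, the dynein gene DYNC1I1 9 and 3, the testis kinase gene LRGUK 8 and 0, ZNF804B 8 and 2, and HEPACAM2 7 and 0. WIF1 on chromosome 12 had 10 and 9. DHRS9 on chromosome 2, and CLEC12A and the synaptic liprin gene PPFIA2 on chromosome 12, had 7 WT wide peaks as HEPACAM2 did, so of the genes with 7 only HEPACAM2 was on chromosome 7.

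Of the genes with the most wide peaks in KO, none was on chromosome 7. ACOXL, a gene of the acyl-CoA oxidase family on chromosome 2, had 10 wide peaks in KO, 8 of them shared, and 0 in WT. It had 145 KO H3K27me3 peaks of any width and fewer in WT, 105, and 28 EZH2 peaks in each list. RPH3A had 10 in KO and 4 in WT, the calcium channel gene CACNA1C 7 and 2, and the neutral ceramidase gene ASAH2 6 and 2. The bile salt export pump gene ABCB11 had 6 and 5, the lymphoid factor gene IKZF3 5 and 3, and the peptidase gene TRHDE 5 and 6. The cortisol-activating enzyme gene HSD11B1 on chromosome 1 and the sodium channel gene SCN8A on chromosome 12 also had 5, with 2 each in WT. At ACOXL, unlike MAGI2, the number of EZH2 peaks was equal in the 2 genotypes.

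Lists of genes known as Polycomb targets or as markers of other tissues were counted next, beside the 2.21% and 1.59% of all genes. Developmental transcription factors, the textbook targets of PRC2, had 10 of 127 genes with a wide peak in WT and 11 in KO, 5 in both. KLF14, the homeobox gene GBX1 (2779 bp in WT, 1136 bp in KO) and the chondrocyte factor gene SOX5 (2031 and 2427 bp) were among the 5. FOXB1, a forkhead gene of the early brain, had a KO wide peak of 1789 bp, and in WT it had 4 peaks, none of them wide. Of 39 HOX genes, HOXD1 alone had a wide peak, of 2067 bp in WT with 1 WT EZH2 peak, and in KO it had 3 H3K27me3 peaks, none of them wide.

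Of 80 WNT, BMP and FGF genes, 2 had a wide peak in WT (WIF1 and WNT2) and 3 in KO (WIF1, WNT8B and BMP10). WNT8B, a ligand of forebrain patterning, had KO wide peaks of up to 2792 bp, and 13 WT peaks of which none was wide. Axon guidance genes had 5 of 47 in each list, 4 of them in both. They included PLXNC1, a semaphorin receptor gene, with 4 wide peaks in WT and 2 in KO, and SLIT3, a repellent ligand gene, with 2 and 1.

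Synaptic adhesion and receptor genes had 11 of 91 with a wide peak in WT and 2 in KO. Of these genes, 7 lie on chromosome 7, and without them the counts were 6 of 84 and 2. Their median length was 260 kb. Of all genes of 100 to 300 kb, 4.34% had a WT wide peak, and of those of 300 kb or more 10.2%. This list was not split by these classes of length. Potassium and sodium channel genes had 5 of 45 in WT and 4 in KO. KCNH7 on chromosome 2 had 4 wide peaks in WT and 0 in KO, with 143 WT and 3 KO peaks of any width. KCND2 on chromosome 7, a transient potassium channel gene, had 3 and 0, with 131 and 1 peaks of any width. KCNA1, an axonal potassium channel gene, had 2 and 1. Few KO peaks of any width lay in KCNH7 and KCND2, as in MAGI2.

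Clustered lectin and NK receptor genes had the highest share of the 24 lists, with 12 of 35 in WT and 7 in KO. All 7 of the KO genes were also among the 12, and each of the 12 lies on chromosome 12. CLEC12A, an inhibitory myeloid receptor gene, had 7 wide peaks in WT and 4 in KO. CLEC9A, a receptor gene of dendritic cells that bind dead cells, had 5 in WT of up to 1998 bp and 0 in KO, with 23 WT and 13 KO peaks of any width. KLRG1, a receptor gene of mature NK and T cells, had 5 and 2, and CLEC4D had 1 and 3. Neighbouring genes share peaks here: the WT peak of 1942 bp at CLEC4D is also that of CLEC4E.

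Keratin genes, all on chromosomes 12 and 17, had 7 of 55 with a wide peak in WT and 6 in KO, 4 in both. KRT6B had 3240 bp in WT against 1171 bp in KO, the reverse of the order at KRT6C, its neighbour. KRT6A, KRT6B and KRT6C are near-identical copies, and the sources used here do not say how reads that match more than 1 of them were placed. The epidermal differentiation complex on chromosome 1 had 6 of 48 in WT and 5 in KO, 5 in both. S100A8, a calcium-binding gene of neutrophils and inflamed skin, had 1767 bp in WT and 1200 bp in KO, and PGLYRP4 1205 and 1674 bp. The peaks at S100A8 are also those of its neighbour S100A7A. S100A8 comes within 5 kb of them through an annotated span of 32.6 kb. Defensin genes had 6 of 45 and 4 of 45, and these too have near-identical copies and are uncertain.

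**Figure D5:**
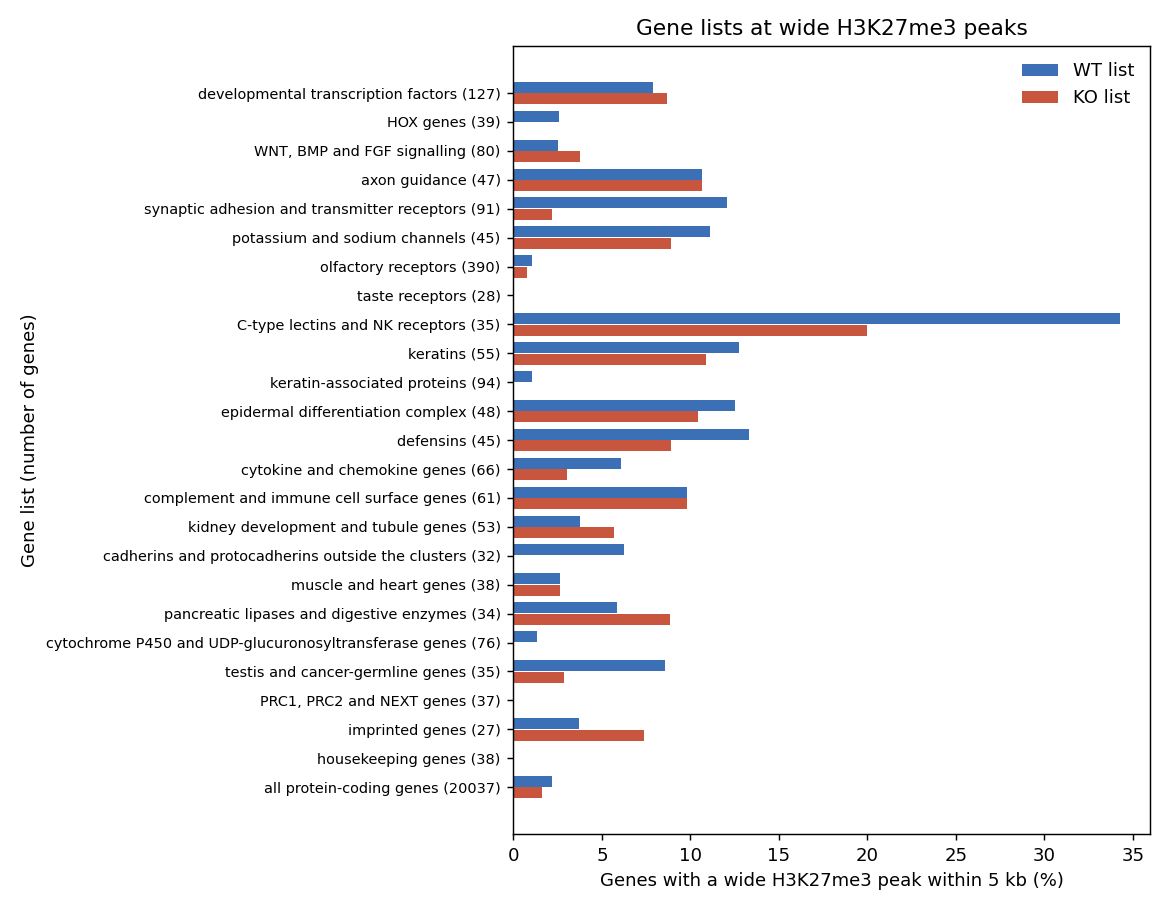
Share of the genes of each list (percent, x axis) with a wide H3K27me3 peak within 5 kb in WT (blue) and KO (red), with the number of genes in brackets (y axis) and all protein-coding genes in the last row. C-type lectin and NK receptor genes have the highest share in both lists, at 12 and 7 of 35 genes, and the taste receptor, Polycomb and NEXT, and housekeeping lists have none.

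Complement and immune surface genes had 6 of 61 in each list, 3 in both. CR2 had 6 wide peaks in WT, all shared, and 0 in KO, with 29 and 21 peaks of any width. CR1 had 4 and 1. Cytokine genes had 4 of 66 in WT and 2 in KO, among them IL26, an interleukin gene of activated T cells, with 3 and 1. Pancreatic and digestive genes had 2 of 34 and 3 of 34, with PNLIPRP3, a lipase-related gene, at 2 wide peaks in each list.

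Kidney genes had 2 of 53 in WT and 3 in KO. LRP2, the megalin receptor gene of the proximal tubule, had 3 in each list, with 83 WT and 59 KO peaks of any width. ATP6V1B1, a proton pump gene of intercalated cells, had 2 in KO of up to 1076 bp and 0 in WT. TTN, the giant sarcomere gene, had 3 in KO and 0 in WT and was the KO gene of the muscle list. Of 32 cadherin genes 2 had a wide peak in WT, CDH6 and CDH8, and 0 in KO. Of 27 imprinted genes 1 had one in WT, KLF14, and 2 in KO, KLF14 and MEST.

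Lists with a lower share than all genes in both genotypes were olfactory receptors (4 of 390 in WT and 3 in KO), keratin-associated proteins (1 of 94 and 0) and cytochrome P450 and UDP-glucuronosyltransferase genes (1 of 76 and 0). Olfactory receptor genes have a median length of 2.99 kb. Their shares of 1.03% and 0.769% were near the 1.00% and 0.787% of genes under 20 kb. Keratin-associated genes, with a median of 0.8285 kb, had 1.06% in WT, also near that share. Testis genes had 3 of 35 in WT and 1 in KO. Taste receptors (28), housekeeping genes (38) and genes of PRC1, PRC2 and NEXT (37) had 0 in both lists. Taste receptor and housekeeping genes are short as well, with medians of 1.10 and 9.67 kb. In lists this small, 0 is little different from the 1.00% and 0.787% of genes under 20 kb. Without chromosome 7 the genes with a wide peak numbered 367 in WT and 300 in KO of 19099, against 442 and 319 of 20037 with it.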

How the data were processed

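For ChIP-seq, H3K27me3 or EZH2 was precipitated from crosslinked, sonicated chromatin of the ACHN line, and libraries were read in pairs, per the labels' protocols. Cutadapt 1.9.3, Bowtie2 2.2.4 and the build hg38 are named, per the submitters' processing notes. The sources used here give neither the peak caller nor the depth, and with 1 library per group precision is limited to counting error. Genotype and title labels set the groups.

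The deposited lists gave each peak's position and length in bp as the authors made them, read as 1-based. The authors' deposited score per peak has no definition in the sources used here and was used only to filter or describe peaks. Peaks on up to 81 identical lines were counted once. The 2 input libraries were not analysed here on their own.

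Overlap, coverage, distances and exact intervals came from scripts in Python 3.11.15 (SciPy 1.17.1, pandas 2.3.3, NumPy 2.4.6, figures with matplotlib 3.10.9), tested on simulated data. Genes and promoters (15743 genes, none on chromosome 8) came from RefSeq, GRCh38.p14, whose coordinates match hg38 on the main chromosomes. Members, gene lists and tests were chosen with earlier results of these data known. Named genes were the nearest gene of the 8 widest peaks of each of the 4 groups, the 8 genes with the most wide peaks per list (ties by their summed length), and up to 4 members of each gene list with the widest peaks. Promoters and CLEC12A, KLRG1 and DHRS9, among other genes outside that rule, were chosen after their values were seen. Not every gene that the rule named is reported here. Alternatives were other limits of width, overlap, score and distance, and sets of chromosomes.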

Additional observations from a re-analysis of the deposited data

Results flagged for a closer look

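Peaks of 1 kb or more with a score of 20 or more lie outside the wide peaks described and were singled out as data that no comparison used. They numbered 43 in WT and 17 in KO. Of the 43, 42 overlapped a KO peak, 36 had a WT EZH2 peak within 5 kb and 32 lay on chromosomes 1, 2, 7, 10, 12 and 17. Of the 17, all 17 overlapped a WT peak, 14 had a KO EZH2 peak within 5 kb and 11 lay on those chromosomes. Their scores reached 423 in WT and 328 in KO, and their widths 4929 and 3915 bp.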

How the results depend on the processing

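No paired analysis was possible because each group had 1 library, so no replicate could be left out either. Of 104 values recomputed for 12 results, 50 stayed close to the reported value, which for a share means inside its interval and for a number of peaks within 1.5 times, and 54 did not. For the share of length covered, that interval treated the share as a count of peaks, 570 of 1850 in WT and 516 of 1193 in KO. Covered bases are not such counts, so for that result the sorting into close or not is only a rough guide. The cause of each move was not tested beyond what the setting itself removes. With a minimum width of 800 bp there were 3597 WT and 2346 KO wide peaks, and with 1500 bp 514 and 278. The shared share was 56.4% and 71.0% at 800 bp, and 78.8% and 91.7% at 1500 bp, and the length covered 27.5% and 38.3%, and 37.8% and 55.1%. EZH2 lay near 65.3% of shared WT, 61.9% of shared KO and 48.8% of KO-only wide peaks at 800 bp, and near 72.1% and 71.4% of shared WT and KO at 1500 bp, where 46.1% of WT wide peaks were near a gene. With scores of 7 or more in both lists, 47.6% of WT wide peaks were shared and 24.0% of their length was covered. Requiring at least 50% of the wide peak to be covered left 24.9% of WT and 38.9% of KO wide peaks shared, and requiring the midpoint 31.3% and 41.8%. Without chromosome 7, 69.7% of WT wide peaks were shared and 34.7% of their length was covered.

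For EZH2 within 1 kb the shares were 41.4% (shared WT), 27.5% (WT-only), 41.2% (shared KO) and 30.0% (KO-only), and within 20 kb 89.5%, 83.5%, 86.6% and 77.5%. With EZH2 scores of 7 or more they were 58.0%, 45.4%, 31.4% and 16.7%. A gene lay within 1 kb of 35.6% of WT and 33.7% of KO wide peaks and within 20 kb of 59.6% and 56.6%. The shares over all H3K27me3 peaks were not computed at these settings of distance and EZH2 score. Sets of chromosomes were chosen after seeing the data. On chromosomes 1, 2, 7, 10, 12 and 17 alone, EZH2 lay near 59.7% of WT-only, 71.8% of shared KO and 62.8% of KO-only wide peaks. Without them 262 WT and 283 KO wide peaks were left, 73.1% of the KO ones were shared with 33.8% of their length covered, 48.1% of the WT ones were near a gene, and EZH2 lay near 53.2%, 24.7%, 50.7% and 39.5% of the 4 groups in the order above. Shared wide peaks had EZH2 nearby more often than unshared ones under each setting run in both genotypes. What read depth limits could not be worked out, since the lists hold no read counts.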
